A study of Mus musculus with 7 samples.

Results

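The ligands of the EGF family and their ERBB receptors were examined in uterine tissue of mice treated with the chemokine CXCL12. The set was defined by gene name and holds 6 ligands (Hbegf, Areg, Ereg, Btc, Tgfa and Egf) and 4 receptors (Egfr, Erbb2, Erbb3 and Erbb4), which are 10 of the 23282 rows of each expression table. One uterine horn of 6-week-old C57BL/6 female mice received 100 ng of recombinant human CXCL12 in 30 µl, and saline was given into the opposite horn. RNA was profiled by QuantSeq, a method that sequences polyadenylated transcripts from their 3′ end. There were 2 saline-treated libraries, 2 CXCL12 libraries of Day 3 and 3 CXCL12 libraries of Day 8. All groups therefore share an infusion into the horn, no altered allele is named for any of them, and the labels give no day for saline. The sources used here do not say whether each library came from a separate animal, so every P-value below measures the spread between these libraries, which may in part be technical.

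EGF-family ligands are made as membrane-anchored precursors, are released by metalloproteases such as ADAM17, and bind ERBB receptor tyrosine kinases on the same or neighbouring cells. Ligand binding joins receptors in pairs and starts the RAS and ERK kinase cascade, and the response is limited by inhibitors that the cascade itself induces. In the mouse uterus, Hbegf is known as a gene of the luminal epithelium at the site of the attaching blastocyst, and Areg as a progesterone-induced gene of the same epithelium.

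Read totals were between 6908790 and 12308982 in the 6 libraries deposited as counts. Day 3 replicate 1 was deposited as log2 values of normalized counts, from which a total of 10453186 reads was estimated. Levels are given as CPM, the reads of a gene relative to the TMM-scaled total of its library, and 3 reads, taken as the limit of detection, amount to 0.247 to 0.369 CPM. Day 8 replicate 1 is placed at Day 8 by its label, although Day 3 appears in the name of its table. Across 14800 genes, which are not independent replicates, its log2 values correlated at a Pearson r of 0.948 with both Day 3 libraries and at 0.892 and 0.894 with Day 8 replicates 2 and 3. The r was 0.942 with saline replicate 2 and 0.89 with saline replicate 1, so the likeness was not particular to Day 3. Several results that involve Day 8, among them those of Hbegf, are therefore also given without this library. The Day 8 and saline groups were tested by the quasi-likelihood method of edgeR on counts, and both comparisons that involve Day 3 by limma on quantile-normalized log2 values. A gene was called when it changed at least 2-fold and its unadjusted P was under 0.05, and separately when its Benjamini-Hochberg adjusted p over all genes tested was under 0.1. Single members were also tested by an exact permutation of the libraries on the quantile-normalized log2 scale (2-sided), which cannot give a p below 0.2 with 3 libraries against 2, or below 0.333 with 2 against 2, so that no member could pass 0.05 in it; over the 14 such tests the smallest Benjamini-Hochberg adjusted value was 0.7.

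None of the 6 members tested between Day 8 and saline was called by edgeR, none of the 4 tested between Day 3 and saline was called by limma, and Hbegf alone of 4 was called, as lower, between Day 8 and Day 3. The calls over all genes were 2.94%, 4.47% and 4.59% of those tested, in the same order. By unadjusted P alone the members gave the same counts of 0, 0 and 1, where 4.28%, 7.34% and 7.18% of all genes passed, and by the adjusted p the count was 0 in each comparison, for members and for all genes. DESeq2 between Day 8 and saline also called 0 members. The 3 comparisons share libraries, so their values are set side by side and are not independent of each other.

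Hbegf encodes heparin-binding EGF-like growth factor, a ligand of EGFR and ERBB4. Saline-treated replicates 1 and 2 had 144 and 163 reads of Hbegf, or 17.7 and 15.7 CPM. The level was 17.2 and 19.6 CPM at Day 3, and 13.4, 5.69 and 5.48 CPM in replicates 1, 2 and 3 of Day 8. All 3 Day 8 libraries were thus below every other library, as in 3.45% of 14800 genes, and Day 8 replicate 1 lay between the rest of its group and the saline-treated libraries. Day 8 replicates 2 and 3 had 69 and 53 reads. Their exact binomial 95% intervals of 4.43 to 7.20 and 4.11 to 7.17 CPM did not reach the 11.1 to 16.1 CPM of Day 8 replicate 1. Such intervals cover counting error only.

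Mean Hbegf was 16.7 ± 1.39 CPM in saline (SD, n = 2), 18.4 ± 1.64 at Day 3 (SD, n = 2) and 8.20 ± 4.52 at Day 8 (SD, n = 3). Relative to Day 3, the log2 fold change of Hbegf at Day 8 was -1.34 (SE 0.44, 95% confidence interval -2.36 to -0.33, limma adjusted p = 0.689). Against saline the log2 fold change was -1.03 (SE 0.46, interval -2.12 to 0.07, edgeR adjusted p = 0.956). The exact permutation p was 0.2 in both, the smallest that it can give. The Day 3 value against saline was 0.18 (SE 0.48, interval -0.93 to 1.29, limma adjusted p = 0.901). That interval still holds a fall of nearly 2-fold and a rise of more than 2-fold. All Day 8 libraries lay below both saline-treated libraries in 10.2% of all genes tested, and below both Day 3 libraries in 16%.

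Without Day 8 replicate 1, Hbegf had a log2 fold change of -1.57 against saline (SE 0.325, edgeR adjusted p = 0.309) and -1.78 against Day 3 (SE 0.265, limma adjusted p = 0.0483). With the library left out, Hbegf was called against saline, and passed the adjusted p against Day 3. In that setting 6.69% of all genes were called against saline, 11.2% were called against Day 3, and 3.25% (478 genes) passed the adjusted p against Day 3. Over the alternatives tried, the change against saline ran from -1.58 to -0.81 with adjusted p between 0.166 and 1, and that against Day 3 from -1.78 to -1.12 with adjusted p between 0.0207 and 1. The call against Day 3 was lost without Day 3 replicate 1 (-1.42), without Day 3 replicate 2 (-1.26) and when replicate numbers entered as a block (-1.12). In bulk tissue, fewer cells of a type and less RNA per cell cannot be told apart.

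Markers of cell types and of hormone response also differed among these libraries. The 7 stromal markers, among them the uterine genes Hoxa10 and Hoxa11, summed to 5732, 8882 and 10110 CPM in Day 8 replicates 1, 2 and 3. Their sum was 5606 to 5863 CPM in saline and 8569 to 9197 CPM at Day 3. Dcn alone was at 3929 and 2782 CPM in saline and 5125 and 5383 CPM at Day 3. Between Day 3 and saline the median log2 fold change of the 7 was -0.23, with 3 positive, and Hoxa10 and Hoxa11 were at -0.82 and -0.23. Between Day 8 and saline the median was 0.32, with 6 positive, and these 2 genes were at -0.02 and 0.63. The 7 markers of glandular epithelium summed to 94.1, 2360 and 3195 CPM at Day 8, 202 to 230 in saline and 44.0 to 45.3 at Day 3, with Prss28 at 0 outside Day 8 replicates 2 and 3, Ttr at 0 at Day 3 and Spink1 at 0 in saline replicate 2. The summed glandular level was thus highest in the libraries where Hbegf was lowest, but the single markers did not all follow it. In Day 8 replicates 2 and 3, most of the sum was Spink1 (1287 and 2014 CPM) and Prss29 (636.7 and 931.1 CPM). Cxcl15 was highest in saline replicate 1 (32.21 CPM), against 10.31 and 20.08 CPM in these libraries. Aldh1a1 was highest in Day 8 replicate 2 (287.1 CPM) and lowest in Day 8 replicate 3 (18.01 CPM). Between Day 8 and saline, 5 of the 7 had a positive log2 fold change. The 6 smooth muscle markers summed to 1958, 4273 and 4090 CPM at Day 8, 1610 to 2444 in saline and 3206 to 3666 at Day 3, and the 5 endothelial markers to 136, 248 and 259, 145 to 197 and 160 to 177 CPM; no stromal, smooth muscle or endothelial marker was at 0 in any library. The 9 leukocyte markers summed to 388 to 509 CPM in saline, 152 to 194 at Day 3 and 139 to 340 at Day 8, with Cd3e at 0 in 4 libraries, and the 8 adipocyte markers to 960 to 2962, 378 to 3336 and 275 to 457 CPM, none at 0. The summed level of 11 epithelial markers was 1397, 632 and 1159 CPM in Day 8 replicates 1, 2 and 3, against 780 to 1205 in saline and 1328 to 1381 at Day 3, and none was at 0 in any library. Without Day 8 replicate 1, the median log2 fold change of these markers was -0.49 against saline, with 2 called higher and 1 lower, and -0.82 against Day 3, with 2 called higher and 4 lower. In that setting 6.69% and 11.2% of all genes were called, in the same order. The sum of 10 progesterone-induced genes was 265, 537 and 1024 CPM in the Day 8 replicates, 204 to 261 in saline and 177 to 199 at Day 3, with Calca at 0 in saline replicate 1 and Irg1 at 0 in Day 3 replicate 1. The 8 oestrogen-induced genes summed to 817, 483 and 560 CPM at Day 8, 916 to 1096 in saline and 1313 to 1483 at Day 3, with Sprr2b and Sprr2e at 0 in Day 8 replicates 2 and 3. The 8 ovarian markers summed to 88.3, 3629 and 9.73 CPM at Day 8, 151 to 969 in saline and 5.20 to 7.34 at Day 3, with Amh at 0 in every library but saline replicate 1, and with Cyp19a1, Fshr and Lhcgr also at 0 in Day 8 replicate 3 and at Day 3. The part of tissue composition and hormone state in the Hbegf values was not tested.

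**Figure D1:**
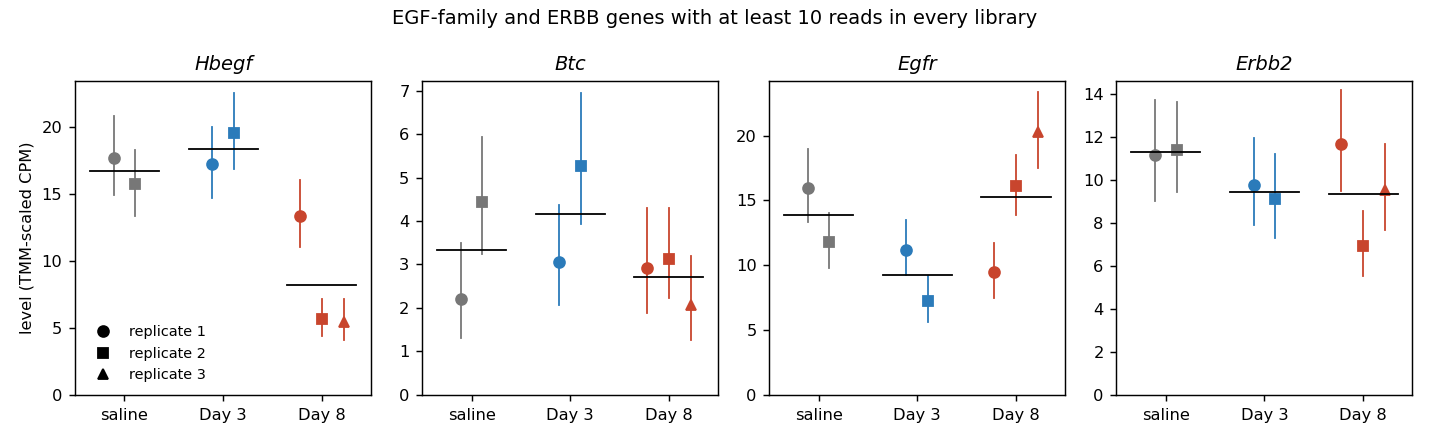
Level of Hbegf, Btc, Egfr and Erbb2 in CPM scaled by TMM (vertical axis, linear, from 0) in saline-treated, Day 3 and Day 8 libraries. Points are libraries, vertical lines are exact binomial 95% intervals and horizontal lines are group means. Hbegf was at 5.69 and 5.48 CPM in Day 8 replicates 2 and 3 and at 13.4 CPM or more in every other library, while the Day 8 libraries spanned the saline-treated ones for Egfr and Erbb2.

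Areg encodes amphiregulin, a ligand of EGFR. It had 2 and 0 reads in saline-treated replicates 1 and 2, and 2 (estimated) and 8 reads at Day 3. The Day 8 libraries had 5, 19 and 7 reads in replicate order, or 0.583, 1.57 and 0.724 CPM. Every Day 8 library was above both saline-treated libraries, as in 9.05% of all genes tested, and Day 3 replicate 2 at 0.828 CPM lay within the Day 8 values. Summed over libraries, the level was 9.44 times as high at Day 8 as in saline (31 against 2 reads, 95% interval of the ratio 2.40 to 81.4, exact binomial method, counting error only). The fitted log2 fold change was 2.96 (SE 1.40, interval -0.34 to 6.26, edgeR adjusted p = 0.956; exact permutation p = 0.2), and with so few reads in saline its size depends on the prior count. Areg passed the filter on low counts only through Day 8 replicate 2, the library with the highest ovarian marker sum. It was 3.22 with Day 8 replicate 1 left out (edgeR adjusted p = 0.576). Without saline replicate 2 it was 1.93, and without saline replicate 1 the remaining saline library had 0 reads, so that no fold is given. The adjusted p of Areg over all alternatives ran from 0.576 to 1.

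Tgfa, transforming growth factor alpha, is another ligand of EGFR. Its reads were 1 and 7 in saline, 0 (estimated) and 1 at Day 3, and 4, 13 and 9 at Day 8. The Day 8 libraries, at 0.466 to 1.07 CPM, were above both Day 3 libraries, as in 16.6% of all genes tested, and overlapped saline replicate 2, at 0.676 CPM. The level at Day 8 was 16.7 times that at Day 3 (26 against 1 read, 95% interval of the ratio 2.74 to 683.6, exact binomial method, counting error only). The same ratio of Day 8 to saline was 1.98 (26 against 8 reads, interval 0.870 to 5.06). Against saline the log2 fold change was 0.99 (SE 1.11, interval -1.61 to 3.60, edgeR adjusted p = 0.956). The gene was too low for the limma comparisons and likewise passed the edgeR filter only through Day 8 replicate 2.

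Btc encodes betacellulin, which binds EGFR and ERBB4. Its level was 2.21 and 4.44 CPM in the saline-treated libraries, 3.06 and 5.28 CPM at Day 3, and 2.91, 3.13 and 2.07 CPM at Day 8. The groups overlapped, and the saline-treated libraries differed from each other by more than the Day 8 libraries did. The log2 fold change of Btc was -0.30 between Day 8 and saline (SE 0.55, interval -1.60 to 1.00, edgeR adjusted p = 0.962). It was 0.49 between Day 3 and saline (SE 0.53, interval -0.74 to 1.72, limma adjusted p = 0.750) and -0.65 between Day 8 and Day 3 (SE 0.49, interval -1.77 to 0.47, limma adjusted p = 0.763). The exact permutation p was 0.8, 0.667 and 0.2, and these intervals hold changes of more than 2-fold.

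The remaining ligands were at or near the limit of detection. Ereg, which encodes epiregulin, had 1 read in saline replicate 1, 1 read in Day 8 replicate 2 and none in the other libraries. Egf, the founding member of the family, had 3 reads (estimated) in Day 3 replicate 1, 1 and 5 reads in Day 8 replicates 1 and 2, and none elsewhere. Neither was tested, and a difference between groups was not detectable at this depth. Ereg, Areg and Btc are neighbours on mouse chromosome 5 (GRCm38, GENCODE M21), at chr5:91074622-91093646, chr5:91139599-91148432 and chr5:91357261-91402994. With Epgn, the gene of epigen, they follow each other without another protein-coding gene between them, at distances of 39.4, 46.0 and 208.8 kb. Along this run, Btc was read in every library, Areg in 6 libraries, and Ereg in 2.

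**Figure D2:**
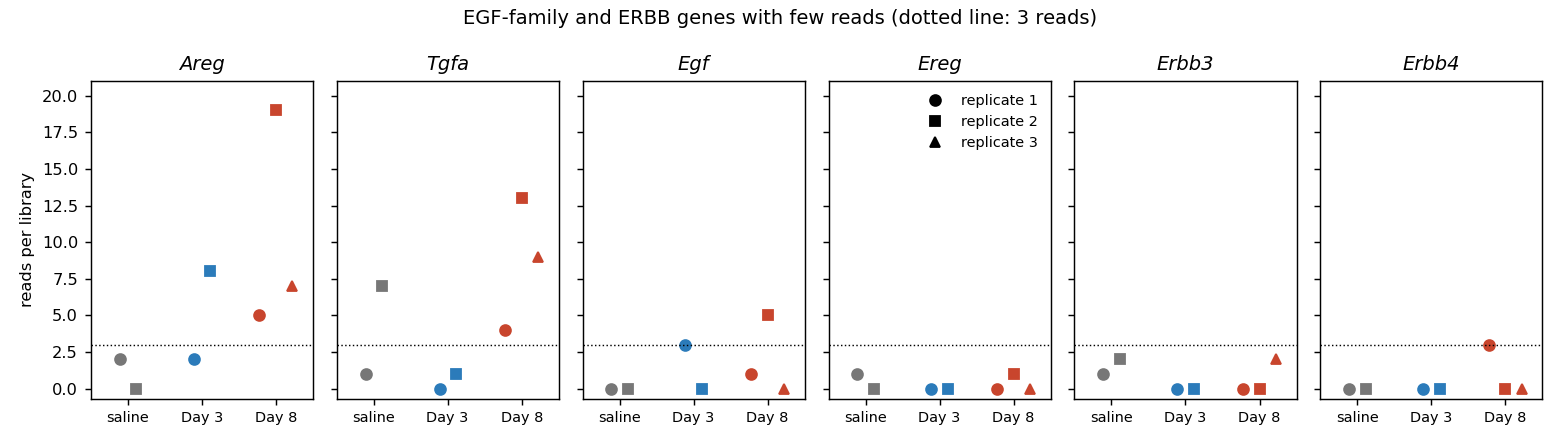
Reads per library (vertical axis) of Areg, Tgfa, Egf, Ereg, Erbb3 and Erbb4 in saline-treated, Day 3 and Day 8 libraries; each point is a library, Day 3 replicate 1 is estimated from its log2 values, and the dotted line marks 3 reads. Areg reached 19 reads and Tgfa 13 reads in Day 8 replicate 2, and no library exceeded 5 reads of Egf, Ereg, Erbb3 or Erbb4.

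Among the receptors, Egfr and Erbb2 were read in every library, and Erbb3 and Erbb4 were not above 3 reads in any. Egfr (chr11:16752203-16918158) encodes a receptor whose ligands include the products of Hbegf, Areg, Tgfa, Btc and Egf. The saline-treated libraries had 15.98 and 11.8 CPM, the Day 3 libraries 11.2 and 7.24 CPM, and the Day 8 libraries 9.44, 16.1 and 20.3 CPM. Both Day 3 libraries were below both saline-treated libraries, and the Day 8 libraries spanned the saline-treated range, with replicate 1 among the Day 3 values. Both Day 3 libraries lay below both saline-treated libraries in 24.9% of all genes tested, and on the quantile-normalized scale used for the test the Egfr values of Day 3 and saline overlapped.

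For Egfr the log2 fold change was -0.54 between Day 3 and saline (SE 0.43, interval -1.54 to 0.46, limma adjusted p = 0.674; exact permutation p = 0.667). Between Day 8 and Day 3 it was 0.62 (SE 0.40, interval -0.29 to 1.54, limma adjusted p = 0.739; exact permutation p = 0.4), and between Day 8 and saline 0.14 (SE 0.41, interval -0.82 to 1.11, edgeR adjusted p = 0.976). The value between Day 8 and Day 3 was 0.91 with Day 8 replicate 1 left out (limma adjusted p = 0.233), and over the alternatives the adjusted p ran from 0.137 to 1. Egfr reached a fold change of 2 in none of these alternatives. Its direction between Day 8 and saline turned in 4 of 16 alternatives, at a range of -0.15 to 0.40.

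Erbb2 (chr11:98412470-98437716) encodes the receptor that has no ligand of its own and pairs with the other ERBB receptors. It was at 11.2 and 11.4 CPM in the saline-treated libraries, 9.79 and 9.10 CPM at Day 3, and 11.7, 6.93 and 9.52 CPM at Day 8. The Day 8 libraries spanned all others, while both Day 3 libraries were below both saline-treated ones, a separation that 24.9% of all genes tested had. The log2 fold change was -0.27 between Day 8 and saline (SE 0.36, interval -1.13 to 0.59, edgeR adjusted p = 0.959), -0.20 between Day 3 and saline (SE 0.36, interval -1.04 to 0.64, limma adjusted p = 0.851) and -0.12 between Day 8 and Day 3 (SE 0.33, interval -0.89 to 0.64, limma adjusted p = 0.934). Leaving out Day 8 replicate 1 gave -0.45 against saline and -0.32 against Day 3. The last 1000 bases of Erbb2, where 3′ reads fall, overlap the gene Mien1 on the opposite strand, and whether reads were counted by strand is not given in the sources used here.

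Erbb3 (chr10:128567523-128589652), whose product binds neuregulins and has little kinase activity, had 1 and 2 reads in saline, none at Day 3 and 2 reads in Day 8 replicate 3. Erbb4 (chr1:68032186-69108059), a receptor of neuregulins and of Hbegf and Btc, had 3 reads in Day 8 replicate 1 and none in the other libraries. Neither receptor was tested. A read total of 0 over a library allows up to 3 reads, so low expression of Erbb3 or Erbb4 is not excluded.

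**Figure D3:**
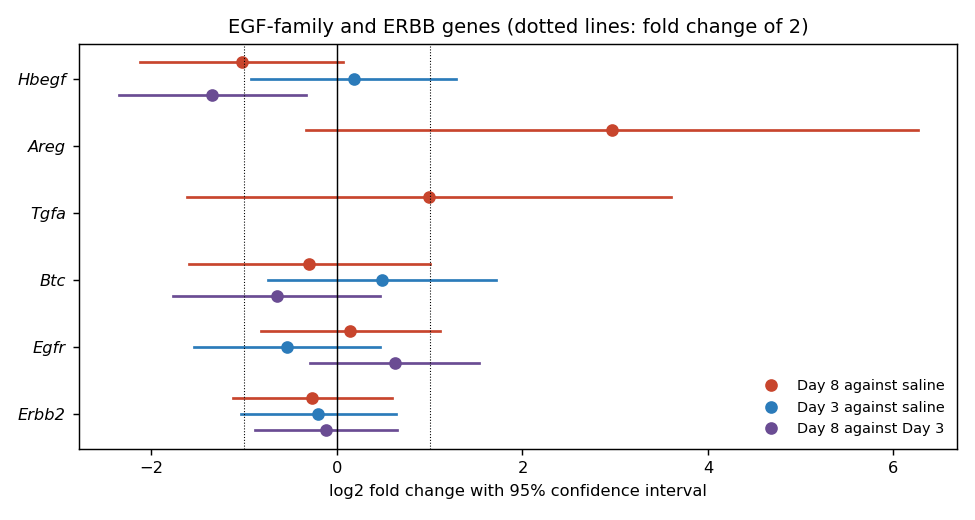
Log2 fold change (horizontal axis) with its 95% confidence interval for the 6 tested genes, by edgeR for Day 8 against saline and by limma for the other comparisons; dotted lines mark a fold change of 2. Among the 14 intervals drawn, only that of Hbegf between Day 8 and Day 3, at -2.36 to -0.33, leaves out 0, and the interval of Areg is the widest.

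Because the scaling between libraries cancels in a ratio of 2 genes of the same library, ligand and receptor reads were also set against each other within libraries. These ratios were chosen after the values had been seen and are described without a test. The ratio of Hbegf to Egfr reads was 1.11 and 1.34 in the saline-treated libraries, 1.54 and 2.70 at Day 3, and 1.42, 0.354 and 0.270 at Day 8. The ratio in Day 8 replicates 2 and 3 was thus below that of the other 5 libraries, and replicate 1 lay among them. Hbegf to Erbb2 was 1.58 and 1.38 in saline, 1.76 and 2.15 at Day 3, and 1.15, 0.821 and 0.576 at Day 8, with all Day 8 libraries lowest. Egfr to Erbb2 was 1.43 and 1.03 in saline, 1.15 and 0.795 at Day 3, and 0.81, 2.32 and 2.13 at Day 8, so that Day 8 replicates 2 and 3 were the highest. Reads of different genes were not calibrated against each other, so only changes of a ratio between libraries can be read from these values.

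**Figure D4:**
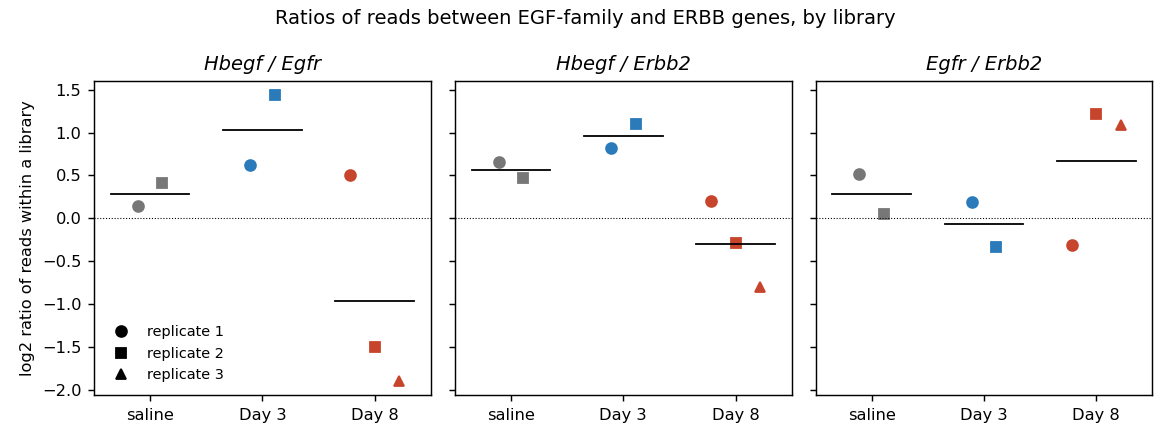
Log2 ratio of reads (vertical axis) of Hbegf to Egfr, Hbegf to Erbb2 and Egfr to Erbb2 within each library, by group; points are libraries and horizontal lines are group means. Day 8 replicates 2 and 3 had 0.354 and 0.270 Hbegf reads for each Egfr read, and the other 5 libraries had 1.11 or more.

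The rest of the pathway was described by 5 lists of genes. Of the 5 other ligands of the family (Epgn and Nrg1 to Nrg4), 3 were tested. Nrg2, the gene of neuregulin 2, a ligand of ERBB3 and ERBB4, had 2.46 and 6.18 CPM in saline, 9.59 and 12.9 CPM at Day 3, and 4.55, 3.88 and 3.21 CPM at Day 8. Both Day 3 libraries were above all others, as in 9.3% of 14800 genes. Nrg2 was called higher at Day 3 than in saline, with a log2 fold change of 1.59 (SE 0.51, limma adjusted p = 0.622), and lower at Day 8 than at Day 3, with -1.58 (SE 0.47, limma adjusted p = 0.688). Nrg1, the gene of neuregulin 1, had 5 and 19 reads in saline and 9, 6 and 1 reads at Day 8, and was at 1.84 and 3.41 CPM at Day 3. It was called lower at Day 8 than at Day 3, at a log2 fold change of -2.33 (SE 0.89, limma adjusted p = 0.694). With Day 8 replicate 1 left out, the values against Day 3 were -1.74 for Nrg2 (limma adjusted p = 0.150) and -2.92 for Nrg1 (limma adjusted p = 0.152). The change of Nrg2 between Day 3 and saline was 0.95 to 2.25 on leaving out single libraries and was called in 14 of 17 alternatives, being lost without saline replicate 1 (0.95), without Day 3 replicate 2 (1.38) and with Day 8 replicate 1 counted with Day 3 (1.18). That of Nrg1 between Day 8 and Day 3 ran from -2.92 to -1.78 and was called in 10 of 16, the call being lost on leaving out either Day 3 library, Day 8 replicate 2 or Day 8 replicate 3, and when replicate numbers entered as a block in either pairing. Between Day 8 and saline none of the 3 passed. The list median of log2 fold changes was -0.16 between Day 8 and saline, 1.38 between Day 3 and saline and -1.58 between Day 8 and Day 3, beside -0.01, 0.01 and 0.00 over all genes.

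None of the 10 genes of ligand shedding (ADAM proteases, iRhoms, Timp3 and Cd9) was called in any comparison, by edgeR or limma, and list medians were -0.10, 0.01 and 0.10 in the same order. The smallest P was that of Timp3, the gene of an inhibitor of ADAM17, in both comparisons with saline, at log2 fold changes of -0.97 (edgeR adjusted p = 0.956) for Day 8 and -1.27 (limma adjusted p = 0.622) for Day 3. Timp3 was 620.4 CPM in saline replicate 1 and between 140 and 239 CPM in the other libraries, so that its difference rests on that library. Adam12, a protease gene, had the smallest P between Day 8 and Day 3, at -0.88 (limma adjusted p = 0.694). Without Day 8 replicate 1 it was called lower at Day 8, in both Day 8 comparisons. Of all genes, 6.69% were then called against saline and 11.2% against Day 3.

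The 21 adaptors and kinases of the ERK cascade gave no call either, with medians of -0.11, -0.12 and 0.10. Gab1, the gene of a docking protein of EGFR, had 31.6 and 29.8 CPM in saline, 22.5 and 29.0 CPM at Day 3 and 34.5, 53.9 and 53.7 CPM at Day 8. Its Day 8 libraries were above all others, as in 3.8% of 14800 genes, with a log2 fold change of 0.85 against Day 3 (SE 0.28, limma adjusted p = 0.694) and 0.63 against saline (edgeR adjusted p = 0.956). Braf, a kinase gene of the cascade, had the smallest P between Day 3 and saline, at -0.77 (limma adjusted p = 0.622), short of a fold change of 2. Counted by unadjusted P alone, Gab1 between Day 8 and Day 3 and Braf between Day 3 and saline passed. Of all genes, 7.18% and 7.34% did so in these comparisons. With Day 8 replicate 1 left out, Gab1 was called higher at Day 8 than at Day 3, at 1.07 (limma adjusted p = 0.0934). In that setting 11.2% of all genes were called against Day 3, and 3.25% passed the adjusted p. The adjusted p of Gab1 over the alternatives ran from 0.0655 to 1.

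Of 16 feedback inhibitors, 14 were tested, and 1 was called between Day 8 and saline, as higher, where 2.94% of all genes were called. Errfi1 encodes MIG-6, a cytoplasmic protein that binds EGFR and inhibits its kinase. It had 103 and 109 reads in saline and 95, 782 and 729 reads in Day 8 replicates 1, 2 and 3. The CPM were 12.7 and 10.5 in saline, 13.3 and 15.0 at Day 3, and 11.1, 64.5 and 75.4 at Day 8, so that Day 8 replicate 1 lay within the saline-treated values and the other Day 8 libraries were far above. The log2 fold change of Errfi1 between Day 8 and saline was 2.12 (SE 0.76, edgeR adjusted p = 0.956), and 2.60 without Day 8 replicate 1 (SE 0.30, edgeR adjusted p = 0.101). In the same setting Socs3 was also called higher against saline, and against Day 3 Errfi1 was called higher and Lrig1 lower. Of all genes, 6.69% were called against saline and 11.2% against Day 3 in that setting. Over the alternatives Errfi1 was called against saline in 11 of 16, with an adjusted p between 0.0291 and 1, and the call was lost with the replicate number as a block (1.23, or 1.24 with the saline numbers exchanged), without saline replicate 1 (2.26), without saline replicate 2 (2.00) and without Day 8 replicate 3 (1.71). Day 8 replicates 2 and 3 are also the libraries with low Hbegf and with the highest progesterone-induced sums, and the part of hormone state in this result was not tested. The list median was -0.09 between Day 8 and saline, 0.22 between Day 3 and saline and -0.38 between Day 8 and Day 3.

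Among 16 growth factor response genes, 15 were tested by edgeR and 14 by limma, and 1 was called higher in each Day 8 comparison. Of all genes, 2.94% were called against saline and 4.59% against Day 3. Ier3, an immediate early gene, had 58.2 and 59.1 CPM in saline, 110.5 and 112.6 CPM at Day 3, and 103.7, 120.1 and 153.2 CPM at Day 8. All CXCL12 libraries were above both saline-treated libraries, as in 5.26% of 14800 genes. The log2 fold change of Ier3 was 1.10 between Day 8 and saline (SE 0.29, edgeR adjusted p = 0.956), and 0.83 between Day 3 and saline (SE 0.25, limma adjusted p = 0.622), below a fold change of 2. Over the alternatives tried for Day 8 against saline, it was called in 13 of 16, with adjusted p from 0.154 to 1. Jun, which encodes a subunit of the AP-1 transcription factor, was called between Day 8 and Day 3, at 1.18 (SE 0.49, limma adjusted p = 0.694). Its levels were 167 and 72.7 CPM in saline, 56.9 and 65.8 CPM at Day 3 and 78.7, 169 and 186 CPM at Day 8, so that saline replicate 1 was near Day 8 replicates 2 and 3. Jun was called in 10 of 17 alternatives, at values from 0.95 to 1.58, and the call was lost on leaving out either Day 3 library, Day 8 replicate 2 or Day 8 replicate 3, with both blocks and with limma without a trend. Without Day 8 replicate 1, 4 genes of the list were called higher between Day 8 and saline (Fos, Ier3, Fosb and Junb), and 5 were called higher and 1 lower between Day 8 and Day 3, where 6.69% and 11.2% of all genes were called. The list medians were 0.27, 0.09 and 0.29 in the order used above.

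**Figure D5:**
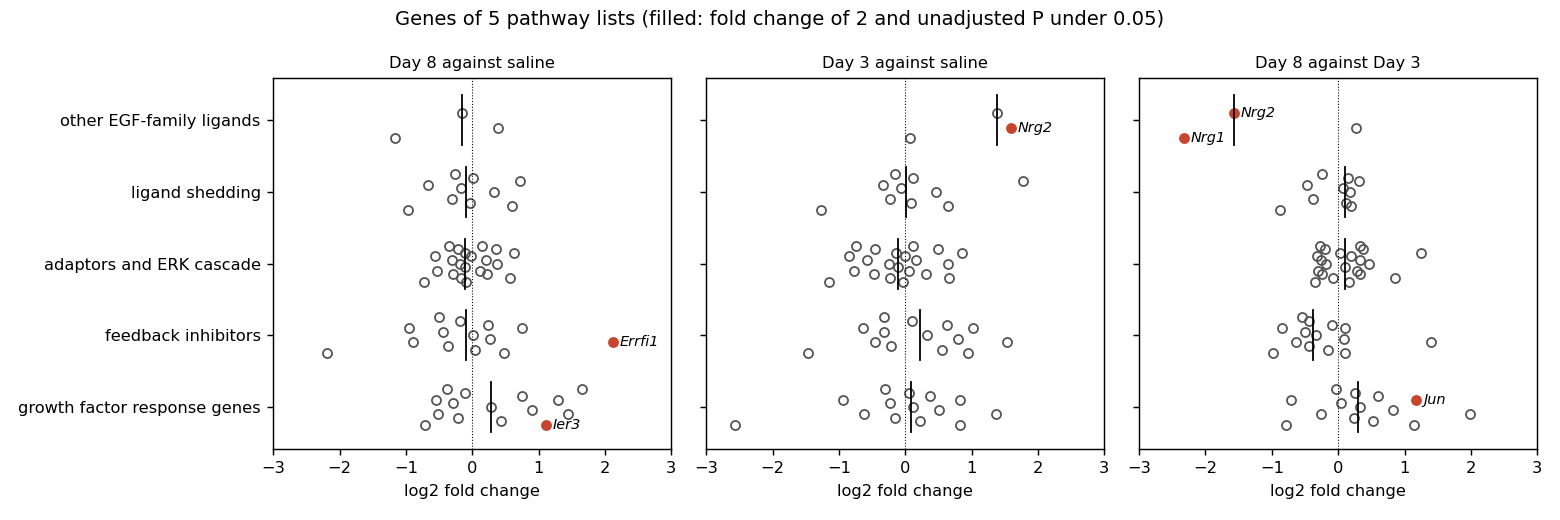
Log2 fold change (horizontal axis) of each tested gene of 5 pathway lists in the 3 comparisons; filled and named points changed at least 2-fold with an unadjusted P under 0.05, vertical lines are list medians, and the vertical spread of points within a list carries no value. Nrg2, Nrg1, Errfi1, Ier3 and Jun are the genes that passed, and none passed the adjusted p of 0.1.

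Genes were finally ranked by how closely their log2 values, centred on their own mean, followed those of a member over the 7 libraries, as the root mean square difference. The ligand and the receptor of widest range were Areg and Erbb4, whose spread is that of a few reads. For Areg, the nearest of 14800 genes were Ank1 (0.380), Snord55 (0.456) and Slc8a3 (0.504), and for Erbb4 they were Srl (0.255), 1700026L06Rik (0.319) and Sirt6 (0.347). Ligand and receptor of widest range among the members above the limma filter were added after the data had been seen. Hbegf, with a range of 1.86 on the log2 scale, was followed most closely by Acox2 (0.109), Spon2 (0.156) and 1700020L24Rik (0.161). Egfr, with a range of 1.40, was followed most closely by Lair1 (0.110), Adipor2 (0.117) and Usp54 (0.120). The likeness describes these 7 libraries, which include 3 groups and unequal depth.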

How the data were processed

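The authors deposited unnormalized read counts by gene symbol for 6 libraries. The remaining table, of Day 3 replicate 1, was deposited by the authors as log2-transformed normalized counts. Reads had been aligned with Bowtie2, unique and multiple alignments counted with Bedtools, and counts normalized by the quantile method in edgeR. The submitters' processing notes list mm10 and hg19 without roles, and versions and annotation are not given in the sources used here. Reads shared between similar genes may therefore be counted in more than one. Undoing the log2 transformation and a step of 1.0525 put 96.7% of 5503 low values within 0.1 of a whole number, where chance gives 20%. These estimated counts served for levels and for an alternative.

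edgeR 4.0.16 (glmQLFit, glmQLFTest, TMM, filterByExpr) was fitted to the 6 count libraries in 3 groups (15388 genes, 3 residual degrees of freedom, common biological coefficient of variation 42.2%). limma 3.58.1 (lmFit, eBayes with a trend) was fitted to log2(normalized count + 1), quantile-normalized over 7 libraries, for 14800 genes with at least 10 normalized counts in at least 2 libraries (4 residual degrees of freedom). Changes of weakly expressed genes are compressed by the added 1. R 4.3.3 and DESeq2 1.42.0 were also used, and the fits were tested on simulated data.

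All tables list 23282 rows. The named genes were the 10 members, up to 3 called genes of each pathway list or else the one with the smallest P, and the genes most like the ligand and receptor of widest range. Members, lists and tests were chosen with earlier results of these data known. Groups came from the labels. Alternatives were other normalizations and filters, DESeq2, a pseudocount of 0.1, the compared groups alone, estimated counts, Day 8 replicate 1 moved to Day 3, a block for the replicate number, and leaving out each library. The exact permutation tests of single members were added after the data were seen.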

Additional observations from a re-analysis of the deposited data

Results flagged for a closer look

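Hbegf differed from the saline mean by 0.18 at Day 3 and by -1.16 at Day 8 on the quantile-normalized log2 scale, that is, in opposite directions at both times. The Day 3 value was smaller than its SE of 0.48, so its direction is not established. The difference between these 2 values is the comparison of Day 8 with Day 3. There Hbegf was called at the unadjusted threshold and had a limma adjusted p of 0.689. Tgfa differed from the saline mean by -0.70 at Day 3 and by 1.47 at Day 8 on the same scale, again in opposite directions. Its Day 3 values were 0.551 and 1.37, from 0 (estimated) and 1 reads. The saline values were 0.551 and 2.78, from 1 and 7 reads, so the Day 3 direction is not established either. Tgfa was too low for the filter, and in the fit without one the log2 fold change between Day 8 and Day 3 was 2.17 (SE 0.77, limma adjusted p = 0.693). In the same fit the value between Day 3 and saline was -0.70 (SE 0.85, limma adjusted p = 0.801). These 2 fitted values of Tgfa share the Day 3 libraries, and the differences from the saline mean share the saline-treated libraries.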

How the results depend on the processing

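The count of members called between Day 8 and saline was 0, and 1 with quantile normalization and limma, with 7 libraries and estimated counts, or with Day 8 replicate 1 counted with Day 3 (Hbegf in each). Leaving out single libraries gave 0 to 1, with Hbegf without Day 8 replicate 1 and Areg without saline replicate 1, where the one saline library left had 0 reads of Areg and the fold is set by the prior count. Between Day 3 and saline it was 1 without a filter (Areg, 1.98). Between Day 8 and Day 3 the count of 1 became 2 without a filter, 0 with the replicate number as a block (Hbegf -1.12) and 0 to 1 on leaving out libraries, at 0 without either Day 3 library; the count past the adjusted p became 1 with Day 8 replicate 1 counted with Day 3 (Hbegf -1.63) and was 0 to 1 on leaving out libraries, at 1 without Day 8 replicate 1. In these settings 1395 and 478 of all genes passed the adjusted p, or 9.43% and 3.25%.

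Directions turned for Egfr between Day 8 and saline, at -0.14 with the replicate block, -0.15 with the block and the saline numbers exchanged (chosen after seeing the data), -0.05 without saline replicate 2 and -0.11 without Day 8 replicate 3; leaving out libraries gave -0.11 to 0.40. Leaving out libraries gave -1.61 to 0.22 for Timp3 (0.22 without saline replicate 1) and -0.71 to 0.30 for Btc (0.30 without saline replicate 2), both between Day 8 and saline, and -0.32 to 0.10 for Erbb2 between Day 8 and Day 3 (0.10 without Day 8 replicate 2). The cause was not tested. Same-numbered libraries deviated from their group means with correlations of -0.168 to -0.00693 over 14800 genes. With so few libraries in a group, this cannot decide whether the numbers pair the samples. The sources used here do not give such a pairing. Over all genes, the count between Day 8 and saline, 453, was 157 with the block, 336 with it exchanged, 1094 with Day 8 replicate 1 counted with Day 3 and 229 to 1527 on leaving out libraries, and DESeq2 called 49 at the adjusted p of 0.1. That between Day 3 and saline, 662, was 222 to 2810, and that between Day 8 and Day 3, 680, was 423 with the block, 1785 with Day 8 replicate 1 counted with Day 3 and 279 to 1654 on leaving out libraries. Few reads limit Areg, Tgfa, Egf, Ereg, Erbb3 and Erbb4.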
